A study of Mus musculus with 2 samples.

Results

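The genes of pre-mRNA splicing described here are the SR proteins (Srsf), the heterogeneous nuclear ribonucleoproteins (hnRNPs), the Snrp proteins of the small nuclear ribonucleoproteins (snRNPs), the SF3a and SF3b subunits, the U2AF proteins and the numbered PRPF factors. They were chosen by name alone: every probe set whose only gene symbol in the array annotation starts with Srsf and a digit, Hnrnp, Snrp, Sf3a or Sf3b and a digit, U2af and a digit, or Prpf and a digit. This gave 174 probe sets for 62 genes, of 34945 probe sets with 1 symbol for 18193 genes. The RNA came from the entire livers of BALB/c nude mice, which lack a thymus, and was hybridised to an Affymetrix mouse expression array. There was 1 array for a liver labelled day 0 after partial hepatectomy, the control, and 1 array for a liver taken on day 3 of regrowth after 70% of the organ was cut away, which the submitters call active regeneration. Both groups share the strain and the operation named in the labels, and no other allele or agent is given. The labels do not say whether an array held 1 animal or a pool, so the day, the operation and the animal cannot be told apart. With 1 array per day there is no replicate error and no test between the days, and every fold below describes these 2 arrays.

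Splicing removes introns in the nucleus on the spliceosome, which is built from snRNPs. The U1 snRNP marks the 5' splice site, U2AF and the U2 snRNP with its SF3a and SF3b subunits mark the branch site and 3' splice site, and the tri-snRNP of U4, U6 and U5 then brings the catalytic RNAs. SR proteins mostly favour the use of exons and hnRNPs often oppose it, and many of both keep their own levels in check by splicing in exons that send their messenger RNA to decay. In liver, Srsf3 is known to be needed for hepatocyte maturation, and Srsf5 was described as an early-induced gene of regenerating rat liver.

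The splicing genes were shifted upward at day 3 by a modest amount, and few were far from their day 0 signal. A floor of 68.3, which is the larger of the medians of the arrays, replaced any signal under it. Where a gene had several probe sets, the one with the highest mean log2 signal, called the brightest here, was taken to stand for it. By this rule 60 of the 62 genes were analysed, all above the floor on both arrays. Their median log2 ratio of signal, day 3 over day 0, was 0.52, a 1.43-fold higher signal, against a median of 0.08 over all 12634 genes analysed. Of the 60 genes, 46 had a ratio above 0 (76.7%), against 55.1% of all genes. At least 2-fold higher signal was seen for 6 of the 60 genes (10%), close to the 12.9% of all genes past that fold. No member was at least 2-fold lower, against 5.62% of all genes. The members were brighter, with a median day 0 signal of 1715.5, against 481 for all genes. With the floor raised to the 75th percentile of the probe sets, 7688 genes were left. In that setting 6 of 60 members were at least 2-fold higher, against 7.47% of all genes, and 0 were lower, against 5.28%. At 1.5-fold, 23 members were higher (38.3%, against 24.0% of all genes) and 2 were lower (3.33%, against 14.2%). The ratios spread less among the members (SD over genes 0.48) than among all genes (0.89), and they ran from −0.90 for Srsf5 to 1.39 for Srsf3.

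The shift depended on which probe set stands for a gene. With the mean over all probe sets of a gene in place of the brightest, the members' median was 0.23, against 0.07 for all genes, and 3 members were at least 2-fold higher (5%, against 11.3% of all genes). Among the probe sets themselves, 156 of 174 lay above the floor on at least 1 array, with a median log2 ratio of 0.29, against 0.05 for the 21677 probe sets of all genes that did. Of the members' probe sets, 12 were at least 2-fold higher (7.69%, against 11.2% of all) and 2 at least 2-fold lower (1.28%, against 6.07%). After the ratios were centred on the median of all genes, Srsf3, Snrpa1 and Hnrnph1 were still at least 2-fold higher, while Hnrnph2 lay just under 2-fold and Srsf6 and Sf3b5 had log2 ratios of 0.95 and 0.92.

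**Figure D1:**
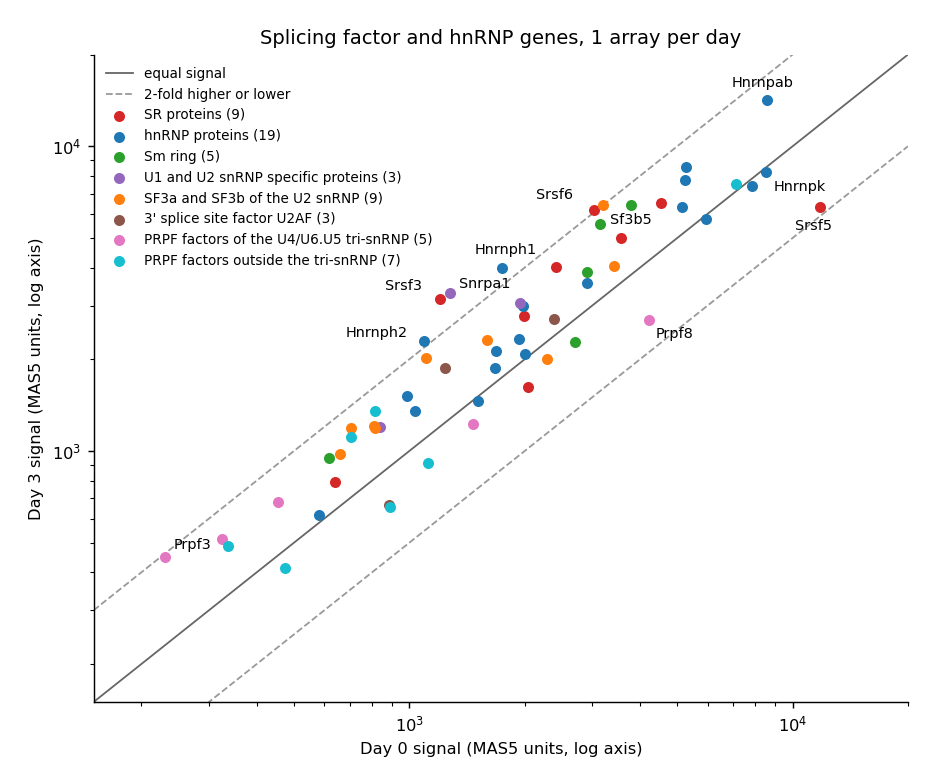
Signal at day 3 against signal at day 0 for the brightest probe set of each of the 60 genes, in MAS5 units on log axes, coloured by role, with 1 array per day. The dashed lines mark 2-fold, and 6 genes lie above the upper line while none lies below the lower one, with Srsf5 nearest to it (11821 at day 0 and 6342 at day 3).

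The same arrays differed in other ways. All 8 markers of dividing cells were at least 2-fold higher at day 3, and their summed signal went from 6061 to 51176. The liver label was checked on Alb, the albumin gene, which had signals of 59840.4 and 46192. The summed signal of 6 hepatocyte markers went from 237927 to 180263, with 5 ratios below 0 and 1 above (Ass1, 208 and 336). The sum of 7 Kupffer cell and macrophage markers went from 7496 to 19741.5, and that of 7 stellate cell markers from 9943 to 23859. All 7 of the macrophage markers and all 7 of the stellate markers had ratios above 0, 4 of each by at least 2-fold, and no marker with a probe set was at a signal of 0. Summed signals went from 275 to 1042 for 4 cholangiocyte markers, from 385 to 1366 for 6 neutrophil markers and from 1053 to 336 for 4 B cell markers. Of the neutrophil markers, S100a8 (60.6 and 585) and S100a9 (110 and 550) were at least 2-fold higher, and Elane had 87.8 and 111. Ngp went the other way (90.0 and 57.7), and Mpo and Camp were under the floor on both arrays. The sum of 7 endothelial markers went from 7594 to 5722, with 4 ratios below 0 and 3 above (Lyve1, Pecam1 and Cdh5). That of 3 erythroid markers went from 9019 to 2939, nearly all of it Alas2 (8932 and 2783), while Slc4a1 had a ratio above 0. Of 5 T cell markers, summing to 132 and 166, 4 were under the floor on both arrays, and Cd8a had signals of 70.5 and 100.2. In whole liver, fewer cells of a type and less RNA per cell cannot be told apart. Bacterial poly-A RNAs spiked in before labelling had more 3' signal per 5' signal on the day 3 array in all 8 pairs of probe sets, by a factor of 1.32 to 2.90. The median log2 ratio of the 5' probes of these spikes was −1.20, and that of the 3' probes was −0.12. For the livers' own RNA, the 3' to 5' ratio went from 1.41 to 2.69 for Gapdh and from 3.26 to 6.80 for beta-actin. The part of these differences in the ratios of the splicing genes was not tested.

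SR proteins spanned the whole range of the set. Of 10 genes, 9 were analysed, and Srsf12 had a single probe set under the floor on both arrays, with signals of 4.13 and 33.5. Srsf3 and Srsf6 were at least 2-fold higher, none was at least 2-fold lower, and the median log2 ratio was 0.49.

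Srsf3, the smallest of the classical SR proteins, had the highest ratio of all 60 genes, and its probe sets all pointed the same way. Its brightest probe set had a signal of 1199 at day 0 and 3147 at day 3, a 2.62-fold higher signal, at percentile 92.5 of all genes analysed. The other 5 probe sets went from 578 to 1449, from 471 to 863, from 346 to 764, from 218 to 551 and from 70.9 to 138. All 6 probe sets were higher at day 3, with log2 ratios between 0.87 and 1.39 (SD between probe sets 0.22).

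Srsf6, the SR protein also known as SRp55, gave opposite readings. Its brightest probe set went from 3036 to 6189, which is 2.04-fold higher. The other 3 went from 3310 to 2055, from 1546 to 1107 and from 1293 to 629, with log2 ratios of −0.69, −0.48 and −1.04. Of its 4 probe sets 1 was therefore at least 2-fold higher and 1 at least 2-fold lower, and the mean over the probe sets was −0.30. The probe set that was higher shares the array's source accession with 2 of those that were lower. No other member, and 9 of the 4380 genes with 2 or more probe sets above the floor on both arrays (Srsf6 included), had 1 probe set at least 2-fold higher and another at least 2-fold lower.

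Srsf5, also called SRp40, stood at the other end of the set. Its single probe set went from 11821 to 6342, a 1.86-fold lower signal at percentile 7.08 of all genes. Srsf4, a large SR protein with a long arginine and serine-rich tail, had the other ratio below 0, with signals of 2045 and 1624 on its single probe set (log2 ratio −0.33).

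Srsf1, the founding SR protein, was read by 7 probe sets and was higher on most. The brightest went from 3569 to 5008, a log2 ratio of 0.49, and 5 of the 7 had ratios above 0, up to 0.79, while 2 had −0.48 and −0.44, the latter counted to the floor. Srsf2, also known as SC35, went from 4536 to 6515 on its brightest probe set (log2 ratio 0.52), and its other probe sets had 0.14, 0.16 and −0.42. The 3 with ratios above 0 are of the kind that can read related transcripts, so without such probe sets the ratio of Srsf2 was −0.42. That value comes from a dim probe set with signals of 136 and 101. Srsf9 went from 2409 to 4003 on its single probe set, a 1.66-fold higher signal. Srsf10, which represses splicing when it loses its phosphates, had 4 probe sets all above 0, but they ran from 0.31 on the brightest (638 to 789) to 1.48 on another (294 to 820). Srsf11 had a ratio of 0.48 on its brightest probe set and of −0.50 to 0.55 over all 3 above the floor on both arrays.

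**Figure D2:**
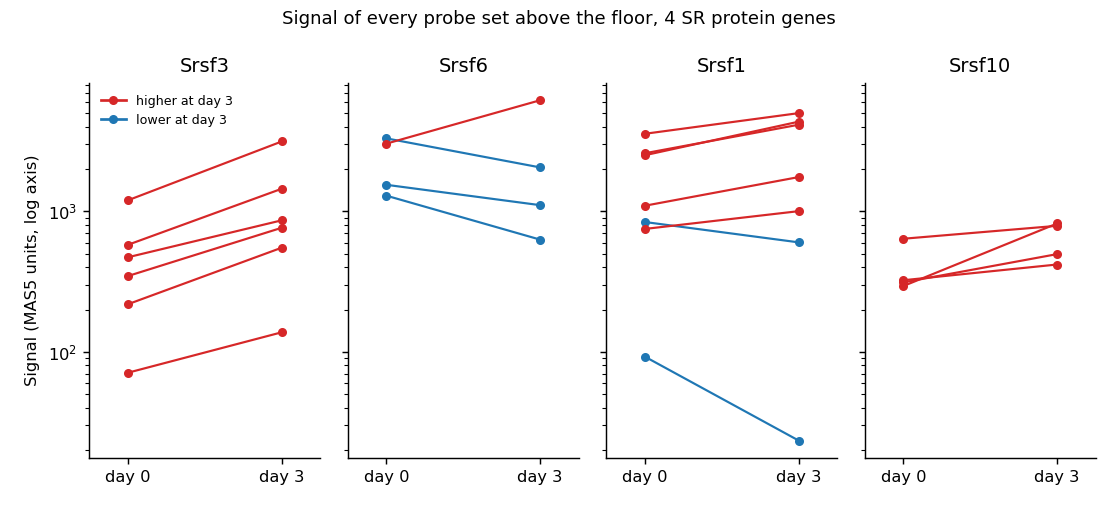
Signal of every probe set above the floor for Srsf3, Srsf6, Srsf1 and Srsf10 at day 0 and day 3, in MAS5 units on a log axis; each line is 1 probe set, red where day 3 is higher and blue where it is lower. All 6 lines of Srsf3 and all 4 of Srsf10 go up, 1 of 4 goes up for Srsf6, and 5 of 7 go up for Srsf1.

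The stretches before the start sites of 5 members are shown so that genes from both ends of the set can be read side by side: Srsf3, Srsf6, Snrpa1 and Hnrnph2, at least 2-fold higher on their brightest probe set (Srsf6 lower on its other 3), and Srsf5, with the lowest ratio. Hnrnph1, which has 5 start windows in the table, and Sf3b5 are not shown. Each is the 250 bases before the RefSeq start in build GRCm38.p6, 5' to 3' on the gene's strand, which is the plus strand in all 5. They lie at chr17:29032410-29032659 (Srsf3), chr2:162931258-162931507 (Srsf6), chr12:80945249-80945498 (Srsf5), chr7:66060086-66060335 (Snrpa1) and chrX:134600929-134601178 (Hnrnph2). Capitals mark matches on either strand to the ETS family core CCGGAAG, the GC box GGGCGG, the E-box CACGTG, the CCAAT box CCAAT, the TATA box TATAAA and the E2F forms TTTCCCGC and TTTGGCGC.
Srsf3: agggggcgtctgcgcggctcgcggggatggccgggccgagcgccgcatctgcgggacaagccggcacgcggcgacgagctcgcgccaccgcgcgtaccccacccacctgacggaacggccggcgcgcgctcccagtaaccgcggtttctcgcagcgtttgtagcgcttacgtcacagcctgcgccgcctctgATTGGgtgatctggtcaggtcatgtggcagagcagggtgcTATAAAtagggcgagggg
Srsf6: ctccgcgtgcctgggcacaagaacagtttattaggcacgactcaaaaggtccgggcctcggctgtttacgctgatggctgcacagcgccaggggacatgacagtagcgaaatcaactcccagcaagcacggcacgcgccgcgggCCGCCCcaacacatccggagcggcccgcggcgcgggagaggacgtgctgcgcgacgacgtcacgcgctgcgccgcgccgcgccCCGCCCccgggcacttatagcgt
Srsf5: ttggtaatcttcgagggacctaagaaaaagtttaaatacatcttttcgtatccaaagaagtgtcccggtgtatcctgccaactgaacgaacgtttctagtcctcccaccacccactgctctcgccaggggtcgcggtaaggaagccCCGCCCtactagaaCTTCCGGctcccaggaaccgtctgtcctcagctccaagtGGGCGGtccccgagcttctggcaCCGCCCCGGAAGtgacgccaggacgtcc
Snrpa1: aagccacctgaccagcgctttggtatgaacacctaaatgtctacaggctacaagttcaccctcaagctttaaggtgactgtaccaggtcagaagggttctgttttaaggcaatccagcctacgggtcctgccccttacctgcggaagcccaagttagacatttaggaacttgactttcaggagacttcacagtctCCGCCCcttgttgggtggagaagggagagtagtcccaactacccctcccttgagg
Hnrnph2: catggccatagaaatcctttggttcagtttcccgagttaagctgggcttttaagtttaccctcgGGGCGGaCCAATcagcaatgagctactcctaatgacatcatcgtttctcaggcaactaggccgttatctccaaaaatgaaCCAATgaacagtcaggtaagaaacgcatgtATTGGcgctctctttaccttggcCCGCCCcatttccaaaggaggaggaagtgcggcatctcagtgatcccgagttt

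These 5 windows had different matches. Srsf3 held a TATA box 18 bases and a reversed CCAAT box 58 bases before the start (counted to the first base of the match), and none of the other motifs. Srsf5 held 2 ETS cores and 3 GC boxes, with 1 base shared by the core and the box nearest to the start, Srsf6 held 2 GC boxes, Snrpa1 held 1, and Hnrnph2 held 2 GC boxes and 3 CCAAT boxes. RefSeq windows were found for 55 of the 62 genes, 75 in all, since some genes have several starts whose windows can overlap. The ETS core was in 28.0% of these windows, against 8.98% of the 21263 windows of all protein-coding genes. The GC box was in 61.3%, against 42.6%, the CCAAT box in 48.0%, against 35.4%, and TTTCCCGC in 8% of windows, against 1.19%. The E-box was in 6.67%, against 6.63%, the TATA box in 6.67%, against 11.6%, and TTTGGCGC in 0 windows of members, against 0.508%. A match is only a match of letters, and nothing about a factor's binding was measured.

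The hnRNP genes were the largest class. All 19 were analysed, with a median log2 ratio of 0.30 and ratios from −0.08 to 1.19. With the mean over probe sets their median was 0.23 and that of the SR proteins 0.17, so the order of the 2 classes depended on the probe set rule. Only Hnrnph1 and Hnrnph2 were at least 2-fold higher, none was at least 2-fold lower, and 6 of 19 were at least 1.5-fold higher (31.6%, against 24.0% of all genes).

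Hnrnph1 and Hnrnph2 encode closely related proteins that bind runs of guanines. The brightest probe set of Hnrnph1 went from 1747 to 3981, a 2.28-fold higher signal, while its dim one had signals of 135 and 124, and the mean of both was 0.53 (log2). Hnrnph2 went from 1089 to 2300.1 on its single probe set, a 2.11-fold higher signal. Hnrnph3 (581 and 616) and Hnrnpf, which belong to the same family, had ratios near 0. All 4 probe sets of Hnrnpf lay between −0.27 and −0.02, with signals of 7849 and 7407 on the brightest, and the ratio turned to 0.06 after quantile normalisation and to 0.21 after scaling to the hybridisation spikes.

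Other hnRNPs were higher by less. Hnrnpab, a protein of the hnRNP A and B group, went from 8597 to 14240.5 on its representative probe set (log2 ratio 0.73), with the other probe sets from −0.28 to 1.07. Hnrnpa2b1, which also sorts RNA for transport, went from 5274 to 8584 (0.70), and all 4 of its probe sets were above 0. Hnrnpc, which binds uridine tracts of nascent transcripts, went from 5236 to 7746 (0.56) on the brightest probe set and from 1224 to 1163 on the other above the floor. Hnrnpa0 and Hnrnpm were 1.52-fold and 1.54-fold higher.

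Several hnRNP genes hardly differed between the arrays. Hnrnpa1, which silences exons, had signals of 1512 and 1458 on the brightest probe set, and its 3 probe sets lay between −0.05 and 0.15. Hnrnpk, which binds cytosine-rich RNA, had 8520.3 and 8261, with 4 probe sets from −0.37 to 0.34. Hnrnpu, a nuclear scaffold protein, had 5155 and 6301, a ratio of 0.29, but its 5 probe sets ran from −0.86 to 0.34. The signs of Hnrnpa1 and Hnrnpk are not firm: after spike scaling their ratios were 0.24 and 0.25.

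**Figure D3:**
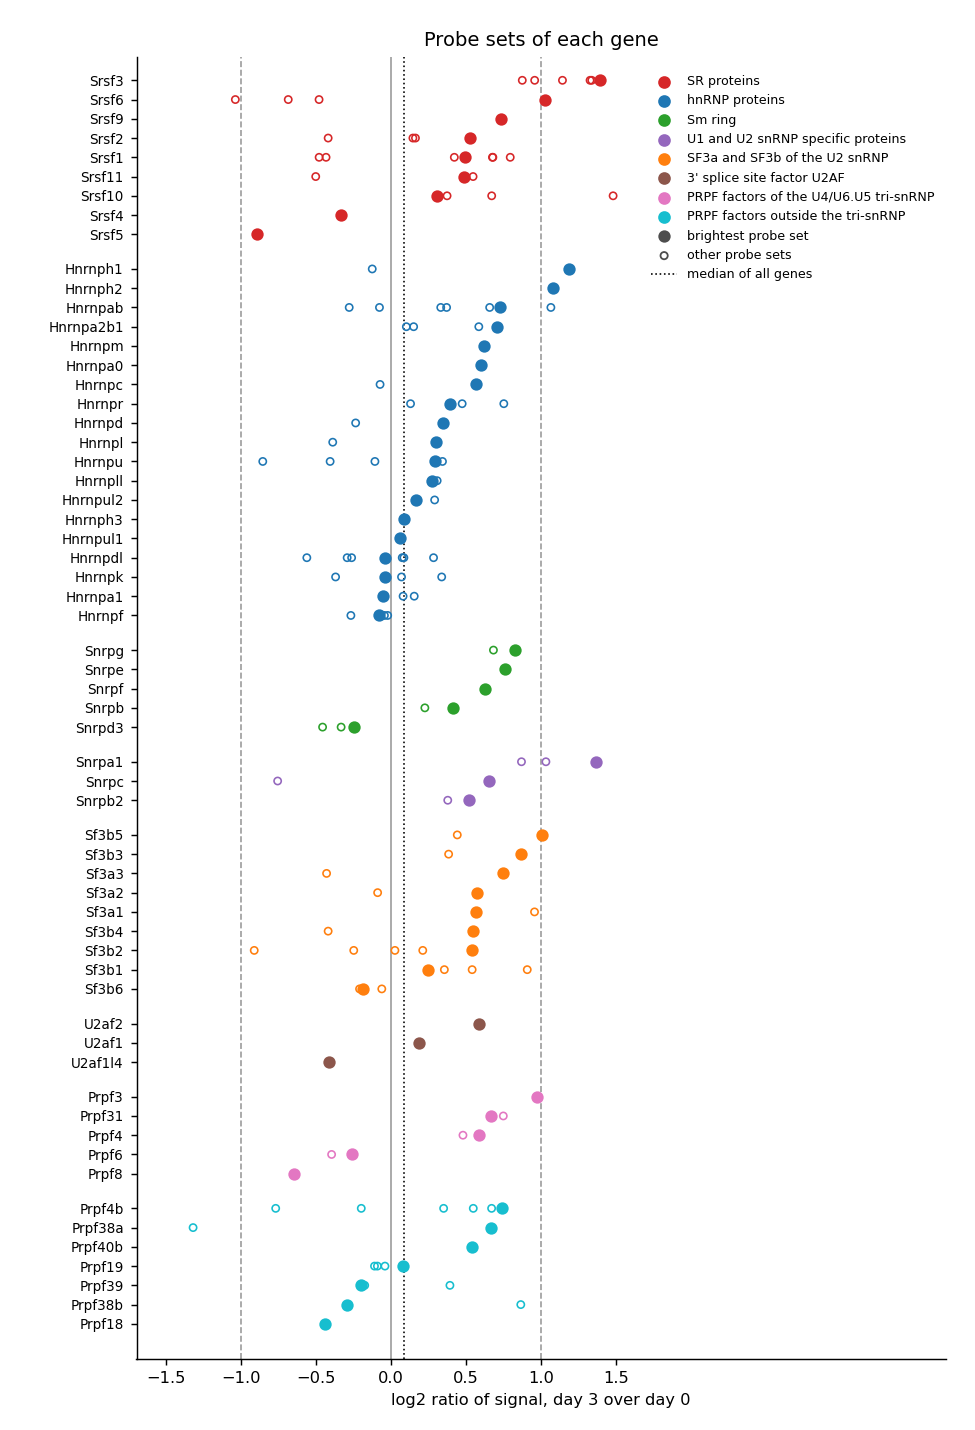
Log2 ratio of signal, day 3 over day 0, for every probe set above the floor on at least 1 array, by gene and role; filled points are the brightest probe set and open points the others. The dotted line is the median of all genes (0.08) and the dashed lines mark 2-fold; Srsf3 and Snrpa1 keep all their points to the right, while Srsf6 and Prpf38a spread to both sides.

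The Sm proteins, which form the ring around each spliceosomal snRNA, were mostly higher. Of 8 listed genes 6 had a probe set with 1 symbol and 5 were analysed, with a median log2 ratio of 0.62. None passed 2-fold. Without probe sets that can read related transcripts, 4 genes were left, with a median of 0.42. Snrpg went from 3141 to 5569 (log2 ratio 0.83, and 0.68 on its other probe set), Snrpe from 3791 to 6422 (0.76) and Snrpf from 618 to 951 (0.62), all 3 at least 1.5-fold higher. Snrpb differed less, from 2912 to 3881 (0.41), with 0.22 on its other probe set. Snrpd3 went the other way on all 3 of its probe sets, from −0.46 to −0.25, with signals of 2707 and 2279 on the brightest, and its ratio was 0.04 after spike scaling. Snrpn, a Sm protein known mainly from brain, was under the floor on both arrays on the single probe set used for it (42.6 and 25.2).

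Snrpa1, a protein specific to the U2 snRNP, had the ratio next to that of Srsf3. Its brightest probe set went from 1277 to 3290 (2.58-fold higher), the others from 1281 to 2618 and from 899 to 1641, so that all 3 were at least 1.5-fold higher. Snrpb2, its partner on the U2 snRNA, went from 839.8 to 1201 (log2 ratio 0.52), with 0.38 on another probe set. Snrpc, a U1-specific protein that contacts the 5' splice site, went from 1939 to 3052 (0.65), while its dim probe set went from 115 to under the floor.

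Of the 9 genes of SF3a and SF3b, 8 had ratios above 0, with a median of 0.57, and 1 passed 2-fold. Sf3b5, the smallest SF3b subunit, went from 3205 to 6442 (2.01-fold higher) on the brightest probe set and from 1970 to 2673 on another (log2 ratio 0.44), so it lies at the threshold. The brightest is of the kind that can read related transcripts. Sf3b3 was 1.82-fold and Sf3a3 1.68-fold higher, though the other probe set of Sf3a3 had −0.43. Sf3b1, which clamps the branch site, had a ratio of 0.24 on the brightest probe set (3412 and 4042) and of 0.35 to 0.91 on the other 3. Sf3b6, the subunit at the branch adenosine, had 2280.1 and 2001 (−0.19), with 3 probe sets between −0.21 and −0.06, and 0.10 after spike scaling. Sf3b2, with 5 probe sets above the floor on both arrays, ran from −0.91 to 0.54.

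U2AF was read by 1 probe set per gene. U2af2, the large subunit that binds the polypyrimidine tract, went from 1241 to 1866 (log2 ratio 0.59). U2af1, the small subunit that reads the AG of the 3' splice site, had 2382 and 2707 (0.18), and its paralogue U2af1l4 had 885 and 665 (−0.41). None of the 3 passed 2-fold.

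The PRPF factors of the tri-snRNP split. Prpf3 and Prpf4, partners on U4 and U6, went from 230 to 450.3 (1.96-fold higher, log2 ratio 0.97) and from 454 to 682 (0.59), and Prpf31, which binds the U4 snRNP, from 324 to 515 (0.67). Prpf3 was dim, and with the floor raised to the 75th percentile of the probe sets its log2 ratio was 0.09. The median of the 5 genes went from 0.59 to 0.09 with that floor. Prpf8, the core protein at the catalytic centre, went from 4217 to 2690.3, a 1.57-fold lower signal on its single probe set. Prpf6, which bridges the U5 and U4/U6 particles, had −0.26 and −0.40 on its probe sets. None of the 5 genes was past 2-fold.

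Of 7 other PRPF factors none passed 2-fold, and the median log2 ratio was 0.08. Prpf4b, a nuclear kinase, went from 811 to 1356 (0.74) on the brightest of 6 probe sets, which ran from −0.77 to 0.74. Prpf38a, a factor of spliceosome activation, went from 703 to 1116 (0.67) on the brightest and from 171 to under the floor on another (−1.32, counted to the floor). Prpf19, the ubiquitin ligase at the heart of the complex that bears its name, had 7110.5 and 7499.8, with 4 probe sets between −0.11 and 0.08. Prpf18, a factor of the second catalytic step, had 892 and 655 (−0.45).

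Disagreement between probe sets was common in the set. Of 38 members with 2 or more probe sets above the floor on both arrays, 14 had all ratios above 0, 4 had all below 0 and 20 had both signs. Both signs were seen in 52.6% of these members and in 37.9% of the 4380 genes of that kind on the arrays, and members had up to 7 probe sets each. The SD per probe set was 0.40 for members and 0.44 for all genes. It was taken from the pair of these probe sets with the highest day 0 signals in each gene. Of the 60 members, 33 had a ratio above this 0.44, as did 29.7% of all genes, and 3 had one below −0.44. The share of all genes below −0.44 was not computed. This spread covers probe sets on these arrays and not animals. Counting probe sets above the floor on at least 1 array, only Srsf3, Snrpa1, Snrpg and Prpf31 had 2 or more, all at least 1.5-fold higher. The second probe set of Prpf31 went from 57.7, under the floor, to 115, so its ratio was counted to the floor. The share of all genes with such probe sets was not computed.

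On the brightest probe sets, splicing genes outside the naming rule, taken from lists of textbook complexes, were shifted less. Of 156 listed genes 139 were analysed, with a median log2 ratio of 0.18. At least 2-fold higher were 13 (9.35%, against 12.9% of all genes), and 1 was at least 2-fold lower. With the mean over probe sets the median was 0.15, against 0.23 for the members. In that setting the medians of single lists ran from 0.06 to 0.36, and those of the members' role classes from 0.004 to 0.62. The 13 higher genes became 9 after median centring, without Cwc27, Bcas2, Lsm8 and Tia1, where 11.3% of all genes were higher. After quantile normalisation they were 11 (10.2% of all genes), with Tra2b and Tardbp newly past 2-fold. After hybridisation spike scaling 21 of 138 were higher (19.6% of all genes), and with the higher floor 7 of 112 (7.47% of all genes). The lower gene, Cirbp, was joined by Smn1 after median centring and after quantile normalisation, and by Ptbp1 with the mean over probe sets. With the higher floor no gene was at least 2-fold lower.

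Other snRNP and LSm genes had the highest median of these lists, 0.34 over 26 genes, with 4 at least 2-fold higher and none lower. Snrnp25, of the minor spliceosome that removes a rare class of introns, went from 168 to 1121 (6.66-fold higher on 1 probe set), more than any member. It was dim at day 0, and its log2 ratio of 2.74 was 1.40 with the higher floor. Snrnp40, a U5 protein, went from 331 to 1544 (4.67-fold). Lsm3 (3.59-fold) and Lsm8 (2.03-fold), parts of the ring on U6, complete the 4 and are named because of their values. Txnl4a, also of U5, had the lowest ratio, −0.61, and Ddx46, a helicase of the U2 snRNP, had −0.32.

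The catalytic spliceosome and PRP19 complex list, with 28 genes and a median of 0.14, had Cwc27 (2.05-fold) and Bcas2 (2.04-fold) at its top and Crnkl1 (−0.59, and −0.14 as the mean over its probe sets) and Dhx16 (−0.57) at its bottom. After quantile normalisation Cwc27 and Bcas2 had log2 ratios of 0.80 and 0.89, and Cwc27 had 0.25 with the higher floor. Of 14 genes of snRNP assembly only Coil, the marker protein of Cajal bodies, was at least 2-fold higher (147 to 358). Smn1, the survival motor neuron protein, had 254 and 133, a log2 ratio of −0.93. Its ratio was −1.01 after median centring and −1.17 after quantile normalisation. The exon junction list, 7 genes, ran from 0.04 for Upf2 to 0.62 for Rnps1, with none past 2-fold.

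Among 22 SR protein kinases and SR-related genes, Tra2a, a splicing activator, went from 473 to 1438 (3.04-fold higher, with 1.13 on its other probe set). Srrm4, known from neurons, went from 83.0 to 262, with a log2 ratio of 0.32 on its other probe set and a mean of 0.99. No other gene of this list passed 2-fold, and the lowest ratios were −0.38 for Bclaf1 and −0.27 for the SR protein kinase Clk1. Among 42 other splicing regulators, 4 were at least 2-fold higher and 1 lower. Mbnl3 was at least 3.00-fold higher, from under the floor to 205, and Sfpq, a paraspeckle protein, went from 577 to 1437 (2.49-fold, with 6 probe sets from 0.29 to 1.32 and a mean log2 ratio of 0.71). Pspc1, another paraspeckle protein, and Tia1 were 2.37-fold and 2.08-fold higher and are named because of their values, and Tia1 had probe sets down to −0.02. Cirbp, a cold-inducible RNA-binding protein, went from 772 to 243 (3.18-fold lower on 1 probe set, log2 ratio −0.86 with the higher floor), and Mbnl2 had −0.48.

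**Figure D4:**
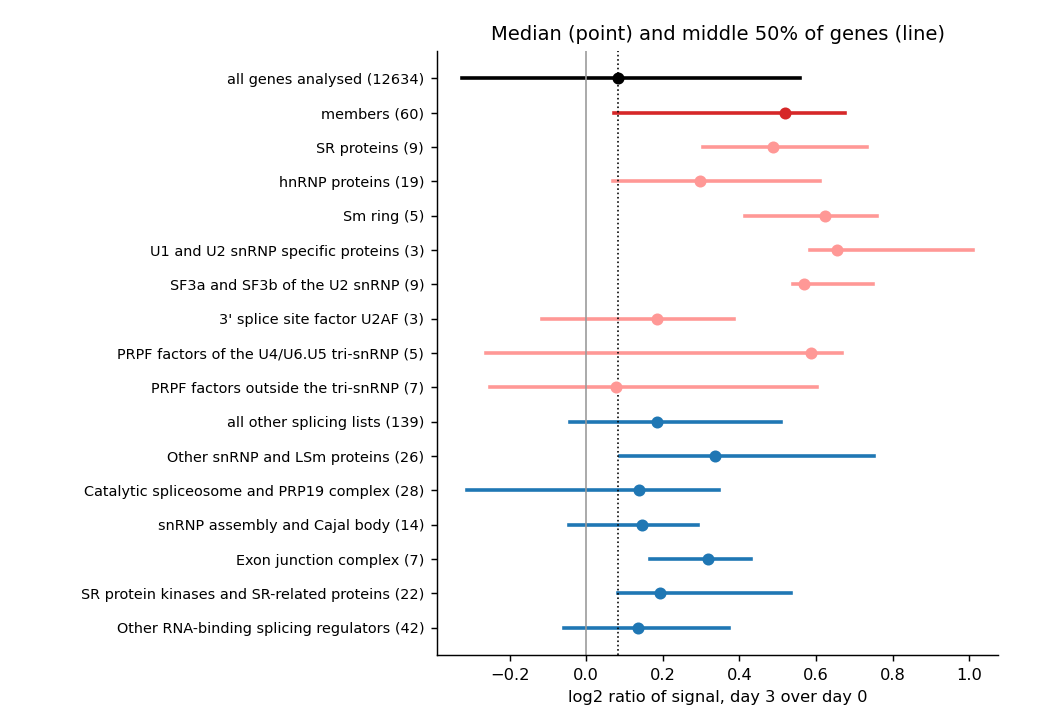
Median (point) and middle 50% of genes (line) of the log2 ratio of signal, day 3 over day 0, for all genes analysed (black), the 60 members (red), their role classes (light red) and the other splicing lists (blue), with the number of genes in brackets. The members' median of 0.52 lies to the right of the dotted line at the median of all genes (0.08), and the other splicing lists lie between 0.13 and 0.34.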

How the data were processed

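The authors deposited 1 linear intensity value per probe set for each of 2 arrays. The submitters' processing notes name GCOS and MAS5, without versions; the scaling target is not given in the sources used here. Per array, the mean signal without the top and bottom 2% of probe sets was 500.004 on both arrays, as scaling each array by 1 factor would give. The signals were used as deposited. MAS5 subtracts mismatch probe signal, so dim probe sets are noisy. Probe sets were named from the array annotation, which can be old; 932 with several symbols were not used, and 18 of these carry a symbol that fits the rule, so that some splicing genes (Snrpd1 among them) were not analysed here. Probe sets whose names end in s or x can also read related transcripts, and where each lies in its gene was not analysed.

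The floor, the representative probe set and the ratios were computed with Python 3.11.15, numpy 2.4.6 and pandas 2.3.3, and the steps were tested on simulated data. The genes and lists were chosen with earlier results of these data known. Named were the highest and lowest gene of each role, every gene past 2-fold or with opposite probe sets, the brightest 3, 18 set genes, and the top and bottom 2 of each other list; further members are named for their values. The alternatives were other scalings, floors, probe set rules and a 1.5-fold threshold.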

Additional observations from a re-analysis of the deposited data

How the results depend on the processing

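The members' count of genes at least 2-fold higher was 6, and it was 3 after median centring (5%, against 11.3% of all genes), 14 after hybridisation spike scaling (23.3%, against 19.6%), 3 with the mean over probe sets (5%, against 11.3%) and 23 at 1.5-fold (38.3%, against 24.0%). The count of genes at least 2-fold lower was 0 in every other setting run and 2 at 1.5-fold. The median log2 ratio of 0.52 was 0.81 after spike scaling and 0.23 with the mean over probe sets. It was above 0 in all 8 alternatives run for it. Spike scaling moved the median of all genes from 0.08 to 0.36, so the members' median lay 0.45 above it, against 0.44 as reported and 0.17 with the mean over probe sets, where the cause was not tested. Over all genes, the split of 1625 higher and 710 lower was 1291 and 927 after quantile normalisation and 2401 and 380 after spike scaling. The ratio of Srsf6 turned to −0.30 with the mean over probe sets, because 3 of its 4 probe sets were lower. Such moves were scored for 31 members, without the further ones named for their values. Beside Srsf6, 6 of the 31 moved by more than the SD between probe sets. Prpf3 went to 0.09 with the higher floor. Hnrnph1, Prpf4b and Sf3a3 went to 0.53, 0.22 and 0.16 with the mean over probe sets. Sf3b5 and Srsf2 went to 0.44 and −0.42 without probe sets that can read related transcripts, the latter on a dim probe set. Among the members not scored, Prpf38a, Snrpc and Sf3b2 had probe sets of both signs. Their log2 ratios ran from −1.32 to 0.67, from −0.76 to 0.65 and from −0.91 to 0.54. No paired analysis was possible because each day has 1 array. With 1 array per day, signal over background and the number of arrays limit every value.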
